A study of Mus musculus with 12 samples.

Results

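Genes that mark microglia and their activation were measured in lysates of the whole brain from mice of 4 genotypes, all of them adult and without treatment. The 8 genes are Aif1, Cd52, Itgam, Itgb2, Itgax, Cybb, Laptm5 and Cd86, and every probe set annotated to 1 of them was taken, which gave 11 of the 22690 probe sets on the array and 8 of the 12393 genes tested. The 12 one-colour Affymetrix 3' arrays held 3 samples each of the double knockout of Usp18 and Ifnar1 (USP18ko:IFNARko), the Usp18 knockout (USP18ko), the Ifnar1 knockout (IFNARko) and wild type (WT). Usp18 encodes a protease that removes ISG15 from proteins and restrains the type I interferon receptor, and Ifnar1 encodes a chain of that receptor, so the double knockout shows which differences were also seen without it. All mice were kept under specific-pathogen-free conditions. The labels give no sex or strain, restrict the knockouts to no cell type and leave unstated whether each sample came from its own animal, so p-values describe the spread among these 12 samples, part of which may be technical. Sex-linked signals given below differ within WT and within USP18ko:IFNARko, so the 3 samples of these genotypes did not all hold the same RNA. Levels are log2 signals as deposited, and a difference of 1 on this scale is a doubling of signal. With no detection calls used here, a low signal cannot be placed above background, so differences are given on the log2 scale and not as folds.

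Microglia are the resident macrophages of the brain. In undisturbed tissue they survey their surroundings and express a set of homeostatic genes, and on activation they change shape, take up debris, and raise surface receptors, integrins, oxidant-producing enzymes and molecules that engage T cells. Type I interferon is a known trigger of such a state. All 8 genes are also expressed by other leukocytes, among them monocytes and dendritic cells. In lysates of whole brain, more cells of a type and more RNA per cell cannot be told apart.

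Sequences upstream of the start site are shown for each of the 5 genes with a RefSeq window (GRCm38.p6), because 4 of them (Cybb, Aif1, Itgam and Laptm5) were called higher in USP18ko and 1 (Itgax) was not. The 250 bases before the start are printed 5′ to 3′ on the strand of the gene. Capitals mark matches on either strand to the interferon-stimulated response element (GAAA, any 2 bases, GAAA), the gamma-activated site TTCNNNGAA or the PU.1 core GAGGAA.
Cybb, chrX:9469325-9469574, minus strand: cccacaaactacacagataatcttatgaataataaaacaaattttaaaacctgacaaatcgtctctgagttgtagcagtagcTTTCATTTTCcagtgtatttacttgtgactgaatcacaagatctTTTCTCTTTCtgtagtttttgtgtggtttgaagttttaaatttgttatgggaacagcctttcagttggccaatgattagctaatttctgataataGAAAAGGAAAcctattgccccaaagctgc
Aif1, chr17:35176053-35176302, minus strand: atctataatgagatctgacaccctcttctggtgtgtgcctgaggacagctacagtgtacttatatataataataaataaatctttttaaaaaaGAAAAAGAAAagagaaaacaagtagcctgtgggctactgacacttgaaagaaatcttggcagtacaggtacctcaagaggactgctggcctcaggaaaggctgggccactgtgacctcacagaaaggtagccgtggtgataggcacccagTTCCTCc
Itgax, chr7:128129300-128129549, plus strand: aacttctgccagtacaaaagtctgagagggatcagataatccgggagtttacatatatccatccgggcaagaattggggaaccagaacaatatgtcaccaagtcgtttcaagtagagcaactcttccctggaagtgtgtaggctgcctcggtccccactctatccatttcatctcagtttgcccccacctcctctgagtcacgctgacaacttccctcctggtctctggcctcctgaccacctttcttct
Itgam, chr7:128062390-128062639, plus strand: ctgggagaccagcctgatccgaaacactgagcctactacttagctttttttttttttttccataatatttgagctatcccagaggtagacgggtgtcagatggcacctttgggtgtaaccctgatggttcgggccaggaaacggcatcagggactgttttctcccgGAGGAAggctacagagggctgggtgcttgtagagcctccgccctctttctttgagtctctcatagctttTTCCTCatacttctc
Laptm5, chr4:130913066-130913315, plus strand: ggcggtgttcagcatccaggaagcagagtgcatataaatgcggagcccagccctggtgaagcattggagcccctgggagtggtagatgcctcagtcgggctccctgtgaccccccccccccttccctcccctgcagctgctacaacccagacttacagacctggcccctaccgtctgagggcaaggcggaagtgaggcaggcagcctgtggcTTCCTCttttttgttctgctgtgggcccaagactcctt
The response element was found in 2 of the 5 windows. That of Cybb held 3 matches, the one nearest the start lying 29 to 20 bases before it, and that of Aif1 held 1, 157 to 148 bases before the start. The windows of Itgam and Laptm5, whose genes were also called higher in USP18ko, held 0, as did that of Itgax. Matches to this element thus did not divide the raised genes from Itgax. Of 32851 such windows, 2.98% held this motif. The windows of Itgam, Laptm5 and Aif1 held 2, 1 and 1 matches to the PU.1 core, against 23.3% of all windows with at least 1. No window of the 5 matched the gamma-activated site, which 7.02% of all windows held, and the Itgax window held no match to any of these motifs. None of the matches overlapped another motif. A match describes these letters only and is not evidence of a bound site.

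Several arrays stood apart and touch the results below. In IFNARko replicate 1 the 3' probe set of beta-actin lay 1.48 above its 5' one on the log2 scale, which is how degraded RNA appears on these arrays, and the gap elsewhere was 0.20 to 0.54. Xist, the RNA that coats an inactive X, read 10.34 to 11.34 in the USP18ko:IFNARko arrays and 10.17 in WT replicate 1, against 4.98 to 5.69 in the other 8. Of those with high Xist, USP18ko:IFNARko replicate 2 also had the Y-linked gene Eif2s3y at 7.16, while the other 3 had it at 3.05 to 3.22. The USP18ko and IFNARko arrays all had low Xist and high Eif2s3y. Ifnar1 read 6.24 to 6.68 in the 6 arrays of both genotypes that lack it and 7.44 to 8.21 in the other 6. Usp18 read 3.50 to 3.76 in the USP18ko:IFNARko and USP18ko arrays, but also 3.53 to 3.67 in the IFNARko arrays, against 4.04 to 4.36 in WT. Mean signals of 5 neuron markers lay at 9.66 in IFNARko replicate 1 and between 10.34 and 10.56 in the other arrays. Those of 5 oligodendrocyte markers lay between 7.57 and 8.70 in the 3 knockout genotypes and between 6.98 and 10.05 in WT. The mean of 12 homeostatic microglia genes was 6.82 to 6.89 in USP18ko:IFNARko, 6.93 to 7.36 in USP18ko, 6.89 to 7.11 in IFNARko and 6.73 to 7.22 in WT.

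Loss of Usp18 with the receptor gene intact was examined by comparing USP18ko with WT. Of the 8 genes, 6 genes were higher in USP18ko brain by limma at an adjusted p under 0.05, where 1.15% of all genes were called higher: Cd52, Aif1, Laptm5, Itgb2, Cybb and Itgam. Cd86 and Itgax did not pass. The 8 genes were chosen with earlier results of these data known. The groups did not overlap for 7 of the 8, all but Itgax, where 4.07% of all genes were higher without overlap. The median log2 difference of the 8 was 1.12, from -0.19 for Itgax to 3.12 for Cd52, against -0.02 over all genes. When the receptor gene was missing as well, 6 of the 8 were lower in USP18ko:IFNARko than in USP18ko, where 1.48% of all genes were called lower, and these were the same genes. Again 7 of the 8 did not overlap, against 8.09% of all genes, and the median difference was -1.25. Both comparisons share the USP18ko arrays. The second also sets arrays with high Xist against arrays with low Xist, so sex-linked signal and genotype cannot be told apart in it. Of the 8 genes only Laptm5 has a mean signal above the 40th percentile of all genes, so a filter at that level leaves 1 gene to test, and it was called in both comparisons. By an exact permutation test, 3 arrays against 3 cannot give a p below 0.1, so all tests are limma's, fitted across all genes.

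**Figure D1:**
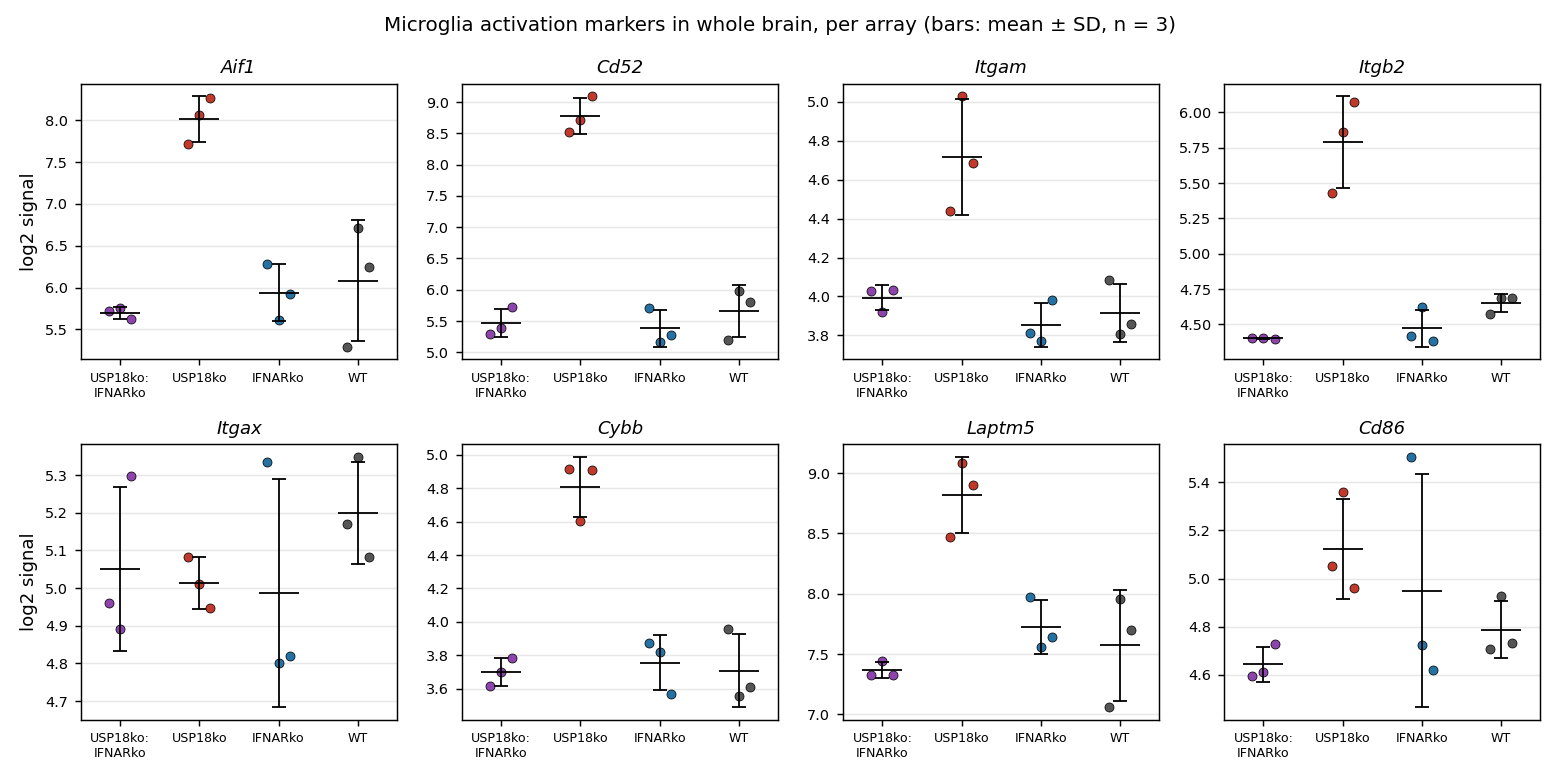
Log2 signal (vertical axis, a separate scale in each panel) of the 8 genes in each array of the 4 genotypes (horizontal axis), with points for arrays and bars for the mean ± SD of 3 arrays. In the panels of Aif1, Cd52, Itgam, Itgb2, Cybb and Laptm5 all 3 USP18ko points lie above all points of the other genotypes, whereas the genotypes overlap for Itgax and, through 1 IFNARko array at 5.51, for Cd86.

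Cd52 and Aif1 were taken first of the 8 genes. Cd52 encodes a short, heavily glycosylated peptide held on the leukocyte surface by a lipid anchor. Its probe set read 5.29, 5.40 and 5.73 in the USP18ko:IFNARko arrays, 8.53, 8.71 and 9.09 in the USP18ko arrays, 5.71, 5.16 and 5.27 in the IFNARko arrays and 5.20, 5.98 and 5.80 in the WT arrays. The 3 USP18ko arrays stood alone, clear of every other array. Cd52 rose by 3.12 in USP18ko against WT (SE 0.22, adjusted p = 2.02e-06) and fell by 3.30 in USP18ko:IFNARko against USP18ko (SE 0.22, adjusted p = 8.71e-07). Of the 8 genes it had the largest difference in both comparisons.

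Aif1 encodes IBA1, a calcium-binding protein that bundles actin and serves as the common stain for microglia. It read 5.72, 5.76 and 5.62 in the USP18ko:IFNARko arrays, 7.72, 8.06 and 8.26 in the USP18ko arrays, 6.28, 5.61 and 5.93 in the IFNARko arrays and 5.30, 6.71 and 6.25 in the WT arrays. The USP18ko arrays did not overlap any other genotype, and the SD of 3 arrays was 0.07 in USP18ko:IFNARko and 0.72 in WT. WT replicate 1, the WT array with high Xist, was the lowest of the 12. Aif1 rose by 1.93 in USP18ko against WT (SE 0.29, adjusted p = 0.00205), and fell by 2.31 in USP18ko:IFNARko against USP18ko (SE 0.29, adjusted p = 0.00036). Without WT replicate 1 the first difference was 1.53 (adjusted p = 0.00226). The same WT array was also the lowest of the 3 for Cd52, the representing probe set of Laptm5, Itgb2 and both probe sets of Cd86, but the highest for Cybb and Itgam. The part of sex or tissue sampling in this spread was not tested.

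Among the 8 genes, 3 encode chains of the leukocyte integrins, receptors that pair an alpha with a beta chain and bind complement fragments and adhesion molecules. Itgam (CD11b) pairs with Itgb2 (CD18) in complement receptor CR3, and Itgax (CD11c) with Itgb2 in CR4. Itgb2 read 4.40 in each of the 3 USP18ko:IFNARko arrays, 5.43, 5.86 and 6.07 in the USP18ko arrays, 4.42, 4.62 and 4.38 in the IFNARko arrays and 4.58, 4.69 and 4.69 in the WT arrays. It rose by 1.14 in USP18ko against WT (SE 0.14, adjusted p = 0.000458) and fell by 1.39 in USP18ko:IFNARko against USP18ko (SE 0.14, adjusted p = 5.83e-05). The lowest USP18ko array lay above every other array.

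Itgam read 4.03, 3.92 and 4.03 in the USP18ko:IFNARko arrays, 4.44, 5.03 and 4.68 in the USP18ko arrays, 3.81, 3.77 and 3.98 in the IFNARko arrays and 4.09, 3.81 and 3.86 in the WT arrays. The USP18ko arrays again did not overlap the rest, at signals near the lower end of an array, which ran from 2.36 to 13.81. Itgam rose by 0.80 in USP18ko against WT (SE 0.14, adjusted p = 0.00909) and fell by 0.72 in USP18ko:IFNARko against USP18ko (SE 0.14, adjusted p = 0.0167), the smallest of the called differences. The first call was lost without WT replicate 3 (0.77, adjusted p = 0.0620), with array weights (0.77, adjusted p = 0.0868) or with these 2 groups alone (0.80, adjusted p = 0.0790). The second was lost without USP18ko replicate 2 or 3, without any of the 3 USP18ko:IFNARko arrays (-0.75 to -0.57 over these 5), with quantile normalization (-0.65) or with Eif2s3y as a covariate (-0.82).

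Itgax, a marker of dendritic cells that microglia also raise in several states of activation, did not follow its neighbour. No other protein-coding gene lies between Itgam and Itgax in the RefSeq annotation. Itgax read 4.96, 4.89 and 5.30 in the USP18ko:IFNARko arrays, 5.08, 5.01 and 4.95 in the USP18ko arrays, 5.34, 4.80 and 4.82 in the IFNARko arrays and 5.17, 5.35 and 5.08 in the WT arrays. All 4 genotypes overlapped, and the means differed by at most 0.21. Its difference was -0.19 in USP18ko against WT (95% confidence interval -0.52 to 0.15, adjusted p = 1) and 0.04 in USP18ko:IFNARko against USP18ko (-0.30 to 0.37, adjusted p = 1). Changes of a size within these intervals remain possible for Itgax. Its only probe set, 1419128_at, averaged 5.06 over the 12 arrays, below the 40th percentile of all genes at 6.72. Whether this signal lay above background was not tested, so the lack of a difference does not show that the transcript was unchanged.

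Among 9 other measured leukocyte integrin chains, ligands and partners, 1 rose in USP18ko against WT and 2 fell in USP18ko:IFNARko against USP18ko. Of all genes, 1.15% were called higher in the first comparison and 1.48% lower in the second. Icam1, a ligand of the Itgb2 integrins on endothelium and microglia, rose by 1.34 (SE 0.19, adjusted p = 0.00168) and fell by 1.57 in the second comparison (SE 0.19, adjusted p = 0.000357). Fermt3, the kindlin that activates integrins in blood cells, fell by 1.10 in the second comparison (SE 0.23, adjusted p = 0.0302), and its difference in the first was 1.03 (adjusted p = 0.0568). Itgal, the alpha chain of LFA-1 and another partner of Itgb2, differed by -0.10 in USP18ko against WT and did not pass. The median of the 9 was 0.16 in the first comparison and -0.18 in the second.

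Cybb encodes gp91phox, the catalytic subunit of the phagocyte NADPH oxidase, which makes superoxide. It read 3.62, 3.70 and 3.78 in the USP18ko:IFNARko arrays, 4.91, 4.60 and 4.91 in the USP18ko arrays, 3.88, 3.82 and 3.57 in the IFNARko arrays and 3.96, 3.55 and 3.61 in the WT arrays. The USP18ko arrays did not overlap the rest, again at low signals. Cybb rose by 1.10 in USP18ko against WT (SE 0.14, adjusted p = 0.000448) and fell by 1.11 in USP18ko:IFNARko against USP18ko (SE 0.14, adjusted p = 0.000342). Of 5 other measured oxidase components 3 rose in the first comparison and 3 fell in the second, against 1.15% and 1.48% of all genes. Cyba, the membrane partner of Cybb, rose by 1.38 (SE 0.28, adjusted p = 0.0262), Ncf4, a cytosolic regulator, by 1.17 (SE 0.20, adjusted p = 0.00847) and the haematopoietic GTPase gene Rac2 by 1.10 (SE 0.16, adjusted p = 0.00146). In the second comparison Ncf4 fell by 1.63 (adjusted p = 0.000378), Rac2 by 1.41 (adjusted p = 0.000141) and Ncf1 by 1.05 (adjusted p = 0.0327). Rac1, the widely expressed relative of Rac2, differed by -0.08 in USP18ko against WT and did not pass.

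Laptm5 encodes a lysosomal membrane protein of blood-derived cells and microglia, and 3 probe sets measured it. The brightest, 1436905_x_at, represents the gene and read 7.33, 7.44 and 7.33 in the USP18ko:IFNARko arrays, 8.47, 9.08 and 8.90 in the USP18ko arrays, 7.97, 7.56 and 7.64 in the IFNARko arrays and 7.06, 7.96 and 7.70 in the WT arrays. By it, Laptm5 rose by 1.25 in USP18ko against WT (SE 0.21, adjusted p = 0.00673) and fell by 1.45 in USP18ko:IFNARko against USP18ko (SE 0.21, adjusted p = 0.00162). The first call was lost with these 2 groups alone (1.25, adjusted p = 0.0634). The average of the 3 probe sets gave 0.81 (adjusted p = 0.00331) in USP18ko against WT and -0.95 (adjusted p = 0.000738) in USP18ko:IFNARko against USP18ko.

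The 3 probe sets of Laptm5 gave the same direction but unlike spreads. Probe set 1426025_s_at read 7.12, 7.04 and 7.11 in the USP18ko:IFNARko arrays, 7.87, 8.12 and 8.20 in the USP18ko arrays, 7.01, 6.99 and 7.10 in the IFNARko arrays and 7.29, 7.34 and 7.29 in the WT arrays. Its WT values had an SD of 0.03, where those of 1436905_x_at had 0.46, and the low WT replicate 1 of the brightest probe set was not seen in it. Tested among all named probe sets, 1426025_s_at differed by 0.76 in USP18ko against WT (SE 0.10, adjusted p = 0.00157) and by -0.97 in USP18ko:IFNARko against USP18ko (SE 0.10, adjusted p = 0.000164). It also lay lower in all 3 IFNARko arrays than in all 3 WT arrays, by 0.27, which did not pass (adjusted p = 0.496). The third, 1417721_s_at, differed by 0.42 in USP18ko against WT and by -0.43 in USP18ko:IFNARko against USP18ko and passed in neither (adjusted p = 0.783 and 0.612). Probe sets of the s and x kinds can bind related transcripts, and that of Aif1 is also of the s kind. The related genes Laptm4a and Laptm4b differed by 0.05 and -0.10 in USP18ko against WT and did not pass.

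**Figure D2:**
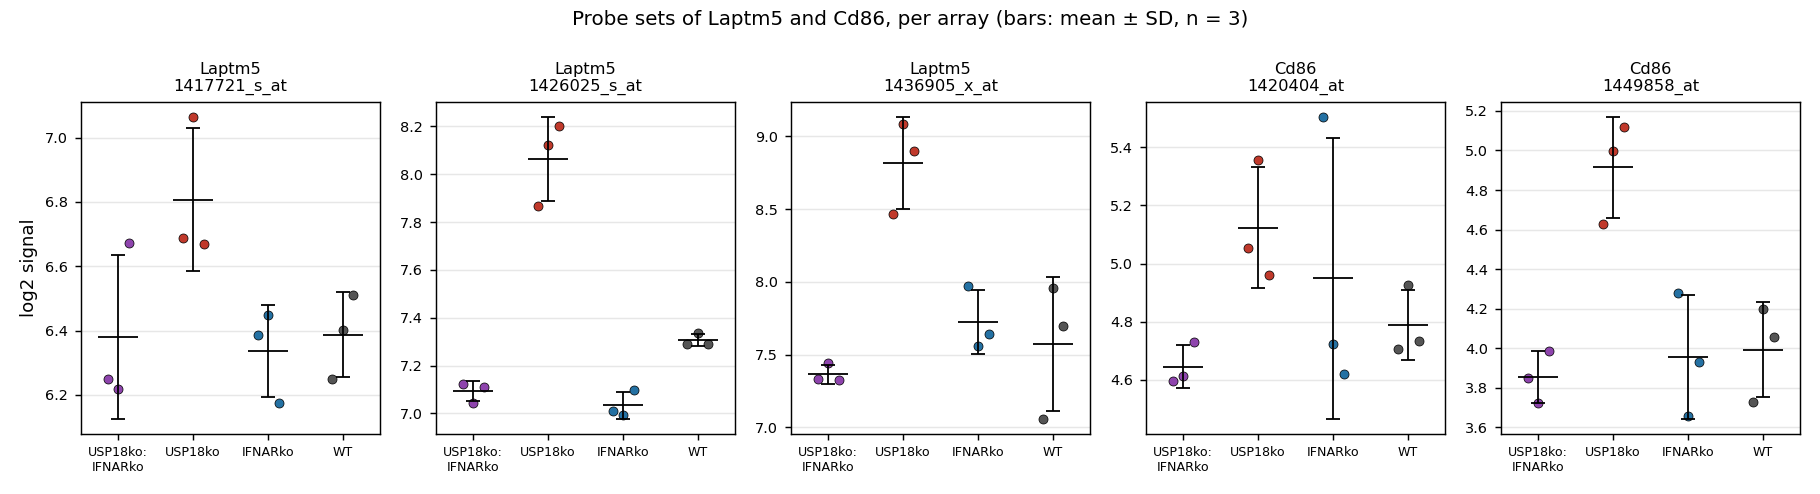
Log2 signal (vertical axis, a separate scale in each panel) of the 3 probe sets of Laptm5 and the 2 of Cd86 in each array of the 4 genotypes (horizontal axis), with points for arrays and bars for the mean ± SD of 3 arrays. The WT points of Laptm5 span 7.06 to 7.96 by 1436905_x_at and 7.29 to 7.34 by 1426025_s_at, and the USP18ko points of Cd86 lie clear of all others by 1449858_at but not by 1420404_at.

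Cd86 encodes B7-2, a ligand on antigen-presenting cells for the T cell receptors CD28 and CTLA-4, and its 2 probe sets differed. The brighter, 1420404_at, which represents the gene, read 4.60, 4.61 and 4.73 in the USP18ko:IFNARko arrays, 5.05, 5.36 and 4.96 in the USP18ko arrays, 5.51, 4.72 and 4.62 in the IFNARko arrays and 4.71, 4.93 and 4.73 in the WT arrays. The highest of the 12 was IFNARko replicate 1, the array with the large actin difference. By this probe set Cd86 differed by 0.34 in USP18ko against WT (95% confidence interval -0.09 to 0.76, adjusted p = 1) and by -0.48 in USP18ko:IFNARko against USP18ko (-0.90 to -0.06, adjusted p = 0.736), and neither passed. The second difference passed with array weights (-0.46, adjusted p = 0.0105) and with the average of both probe sets (-0.77, adjusted p = 0.0419).

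The other probe set of Cd86, 1449858_at, read 3.85, 3.72 and 3.99 in the USP18ko:IFNARko arrays, 4.63, 4.995 and 5.12 in the USP18ko arrays, 4.28, 3.66 and 3.93 in the IFNARko arrays and 3.73, 4.20 and 4.06 in the WT arrays. Here the USP18ko arrays overlapped no other genotype. Among all named probe sets it rose by 0.92 in USP18ko against WT (SE 0.18, adjusted p = 0.0321) and fell by 1.06 in USP18ko:IFNARko against USP18ko (SE 0.18, adjusted p = 0.00962). A call for Cd86 thus depended on the probe set, and which of them reflects the transcript better was not tested. Of 8 other costimulatory ligands and receptors only Cd274, which encodes the inhibitory ligand PD-L1, rose in USP18ko against WT, by 1.07 (SE 0.19, adjusted p = 0.0102). It fell by 1.21 in USP18ko:IFNARko against USP18ko (SE 0.19, adjusted p = 0.00342). Of all genes, 1.15% were called higher in the first of these comparisons and 1.48% lower in the second. Cd80, the closest relative of Cd86, differed by 0.06 in USP18ko against WT and did not pass.

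In the 3 comparisons that leave out USP18ko, none of the 8 genes passed. In USP18ko:IFNARko against WT the 8 differences ran from -0.38 to 0.08 with a median of -0.17, and limma called 0 of the 8, where 0.0161% of all genes were called. At an unadjusted p under 0.05 there were also 0 of the 8, against 4.09% of all genes. Itgb2 was lower in all 3 USP18ko:IFNARko arrays than in all 3 WT arrays, by 0.25 (95% confidence interval -0.55 to 0.06, adjusted p = 0.995), where 10.3% of all genes were lower without overlap. Cd52 differed by -0.19 (-0.66 to 0.28) and Aif1 by -0.38 (-1.002 to 0.24), each with adjusted p = 0.995, so the intervals of both lie below their differences in USP18ko against WT.

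In IFNARko against WT the differences of the 8 ran from -0.28 to 0.16 with a median of -0.10. Limma called 0 of them, where 0.00807% of all genes were called, and 0 had an unadjusted p under 0.05, against 9.79% of all genes. The signs for Aif1, Itgam, Laptm5, Cybb and Cd86 turned under some alternatives, so no direction is given for these. USP18ko:IFNARko against IFNARko asks for a difference with Usp18 loss in the absence of the receptor gene. It also sets arrays with high Xist against arrays with low Xist, so sex-linked signal and genotype cannot be told apart in it. The differences of the 8 ran from -0.36 to 0.14 with a median of -0.06. Limma called 0 of the 8 and 0% of all genes, though with array weights it called 814 of all genes and still 0 of the 8. Without weights 0 of the 8 had an unadjusted p under 0.05, against 8.25% of all genes. The largest was that of Laptm5, at -0.36 (95% confidence interval -0.82 to 0.10, adjusted p = 0.574), whose groups did not overlap, as was so for 11.2% of all genes in that direction. With Eif2s3y as a covariate it was 0.12. The signs of Aif1, Itgb2, Itgax, Cd52 and Cybb in this comparison also turned under some alternatives.

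**Figure D3:**
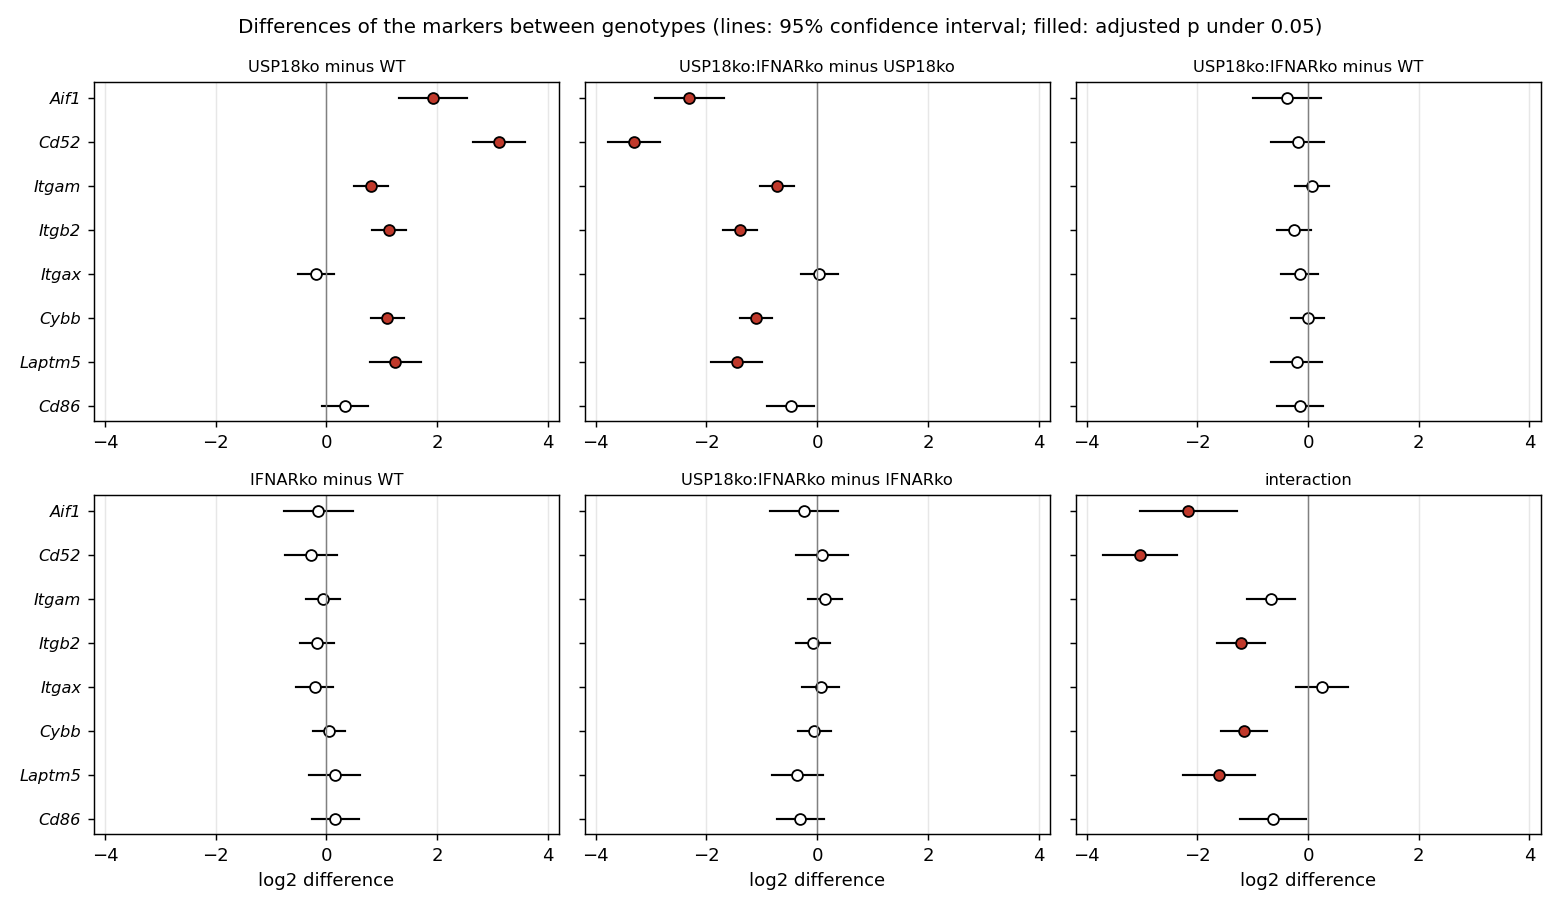
Log2 difference (horizontal axis) of each of the 8 genes (vertical axis) in 5 comparisons of genotypes and in the interaction, with lines for the 95% confidence interval of limma and filled points for an adjusted p under 0.05. In USP18ko minus WT 6 points are filled to the right of 0, 6 to the left in USP18ko:IFNARko minus USP18ko, none in the next 3 panels and 5 to the left in the interaction.

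Whether the difference made by Usp18 loss depended on the receptor gene was tested as an interaction, the difference of USP18ko:IFNARko against IFNARko minus that of USP18ko against WT. It was negative and passed for 5 of the 8 genes, where 0.823% of all genes were called in that direction. These were Cd52 at -3.03 (SE 0.31, adjusted p = 0.000121), Aif1 at -2.17 (SE 0.40, adjusted p = 0.0195), Laptm5 at -1.61 (SE 0.30, adjusted p = 0.0195), Itgb2 at -1.21 (SE 0.20, adjusted p = 0.0081) and Cybb at -1.16 (SE 0.19, adjusted p = 0.0084). Itgam, at -0.66 (adjusted p = 0.377), Cd86, at -0.64, and Itgax, at 0.25 (adjusted p = 0.941 for both), did not pass. The value of Laptm5 is that of its brightest probe set. By limma its other probe sets gave -0.70 (1426025_s_at, adjusted p = 0.0572) and -0.38 (1417721_s_at, adjusted p = 0.932), and neither passed. The average of its probe sets gave -0.89 (adjusted p = 0.0325). The calls of Aif1 and Laptm5 were lost without USP18ko replicate 2 or 3 or without any of the 3 USP18ko:IFNARko arrays, which left 3 genes called, with values of -2.19 to -2.04 for Aif1 and -1.64 to -1.47 for Laptm5, and that of Aif1 also without IFNARko replicate 1 (-1.99). With Eif2s3y as a covariate, since sex-linked signals differ between these genotypes, only Cd52 (-2.59, adjusted p = 0.00609) and Cybb (-1.41, adjusted p = 0.0221) passed, and Aif1 was at -1.31, Itgb2 at -1.11 and Laptm5 at -0.99.

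The same covariate left 6 of the 8 genes called in USP18ko against WT, among 139 of all 12393 genes, and 5 in USP18ko:IFNARko against USP18ko, among 124. In the interaction the 2 were among 51. Xist was high in all USP18ko:IFNARko arrays and low in all USP18ko and IFNARko arrays. Within a genotype Eif2s3y varied widely only through WT replicate 1 and USP18ko:IFNARko replicate 2, so the covariate rests mainly on these arrays. It therefore cannot fully separate sex-linked signal from genotype in USP18ko:IFNARko against USP18ko or against IFNARko, or in the interaction. Leaving out WT replicate 1, IFNARko replicate 1 and USP18ko:IFNARko replicate 2 together left 6 called among 168 in the first comparison, 6 among 249 in the second and 4 among 117 in the interaction, where Itgb2 was at -1.20 (adjusted p = 0.0506). All remaining USP18ko:IFNARko arrays then had high Xist and low Eif2s3y, and all others the reverse. Sex-linked signal and this genotype thus cannot be told apart in the second comparison and the interaction under this setting.

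Other genes of activated and resting microglia were set beside the 8. Of 24 other activation genes, 5 rose in USP18ko against WT (median 0.56), and 6 fell in USP18ko:IFNARko against USP18ko (median -0.70). Over all genes 1.15% were called higher in the first comparison and 1.48% lower in the second. Fcgr1, the high-affinity receptor for IgG, rose by 2.72 (SE 0.20, adjusted p = 3.88e-06), Ptprc, the leukocyte phosphatase CD45, by 2.12 (SE 0.24, adjusted p = 0.000223) and Lyz2, the lysozyme of macrophages, by 1.71 (SE 0.25, adjusted p = 0.00156). Tlr2, a receptor for bacterial lipoproteins, rose by 1.31 (SE 0.12, adjusted p = 2.62e-05), and Lgals3 passed as well. In the second comparison Fcgr1 fell by 3.16, Ptprc by 2.46, and Lyz2 fell by 2.04, and Tlr2 fell by 1.50.

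Of 12 measured homeostatic microglia genes none was called by limma in USP18ko against WT, with 2 at an unadjusted p under 0.05, and the median difference was 0.12. P2ry12, the purine receptor that guides microglial processes, differed by -0.35, Tmem119 by 0.41 and Cx3cr1, the fractalkine receptor, by 0.35, each with adjusted p = 1. Selplg, which encodes a selectin ligand, fell by 0.43 in USP18ko:IFNARko against USP18ko (SE 0.09, adjusted p = 0.0413). In USP18ko against WT 9 of the 12 differences were above 0, up to 0.89. In USP18ko:IFNARko against USP18ko 1 of the 12 was above 0, and 4 were lower at an unadjusted p under 0.05 by limma. The homeostatic list thus had 0 of 12 called higher and the 8 markers 6 of 8, where 1.15% of all genes were called higher. At that share 0 of 12 does not show the list to be unchanged. The difference in counts was not itself tested, and both sets were chosen with earlier results of these data known.

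Markers of other cells that express the 8 genes were measured in the same arrays. The mean signal of 9 monocyte and neutrophil markers was 4.05 to 4.74 in USP18ko:IFNARko, 4.94 to 5.06 in USP18ko, 4.01 to 4.60 in IFNARko and 4.09 to 4.27 in WT. Plac8, which rose by 3.35 in USP18ko against WT (SE 0.32, adjusted p = 3.78e-05), was the 1 of the 9 that passed, while S100a8 and S100a9 differed by 1.90 and 1.63 (adjusted p = 0.112 and 0.0894). Ccr2, the receptor that recruits monocytes, differed by 0.19 and Mpo, a neutrophil granule enzyme, by 0.00, and neither passed. Perivascular macrophage markers, 9 in number, averaged 5.72 to 5.97 in USP18ko:IFNARko, 6.24 to 6.50 in USP18ko, 6.06 to 6.50 in IFNARko and 5.66 to 6.08 in WT. Ms4a7 rose by 1.74 in USP18ko against WT (SE 0.15, adjusted p = 1.11e-05), whereas Mrc1, Cd163 and Lyve1 differed by 0.46, 0.01 and 0.85 and did not pass. Over all genes 1.15% were called higher in USP18ko against WT. The part of these cells in the differences of the 8 genes was not tested.

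Dendritic cell and lymphocyte markers were measured as well. Of 7 dendritic cell markers limma called 0 in USP18ko against WT, with 0 at an unadjusted p under 0.05, and the range of their differences was -0.15 to 0.16. Zbtb46, a transcription factor of conventional dendritic cells, differed by -0.04, and Xcr1 by -0.15. Of 13 lymphocyte markers 0 were called and 0 had an unadjusted p under 0.05, within -0.12 to 0.17, and the T cell receptor chains Cd3d and Cd3g differed by 0.15 and 0.03. The mean of the lymphocyte markers was 4.45 to 4.58 in USP18ko:IFNARko, 4.44 to 4.70 in USP18ko, 4.37 to 4.76 in IFNARko and 4.52 to 4.60 in WT. Of the markers of neurons, astrocytes, oligodendrocytes and endothelium, 0 of 5, 0 of 6, 0 of 5 and 0 of 5 were called, and 1 of these, the astrocyte gene Gfap (0.70, adjusted p = 0.831), had an unadjusted p under 0.05. In USP18ko against WT 1.15% of all genes were called higher. At that share, counts of 0 in lists this short do not show the markers or their cells to be unchanged.

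**Figure D4:**
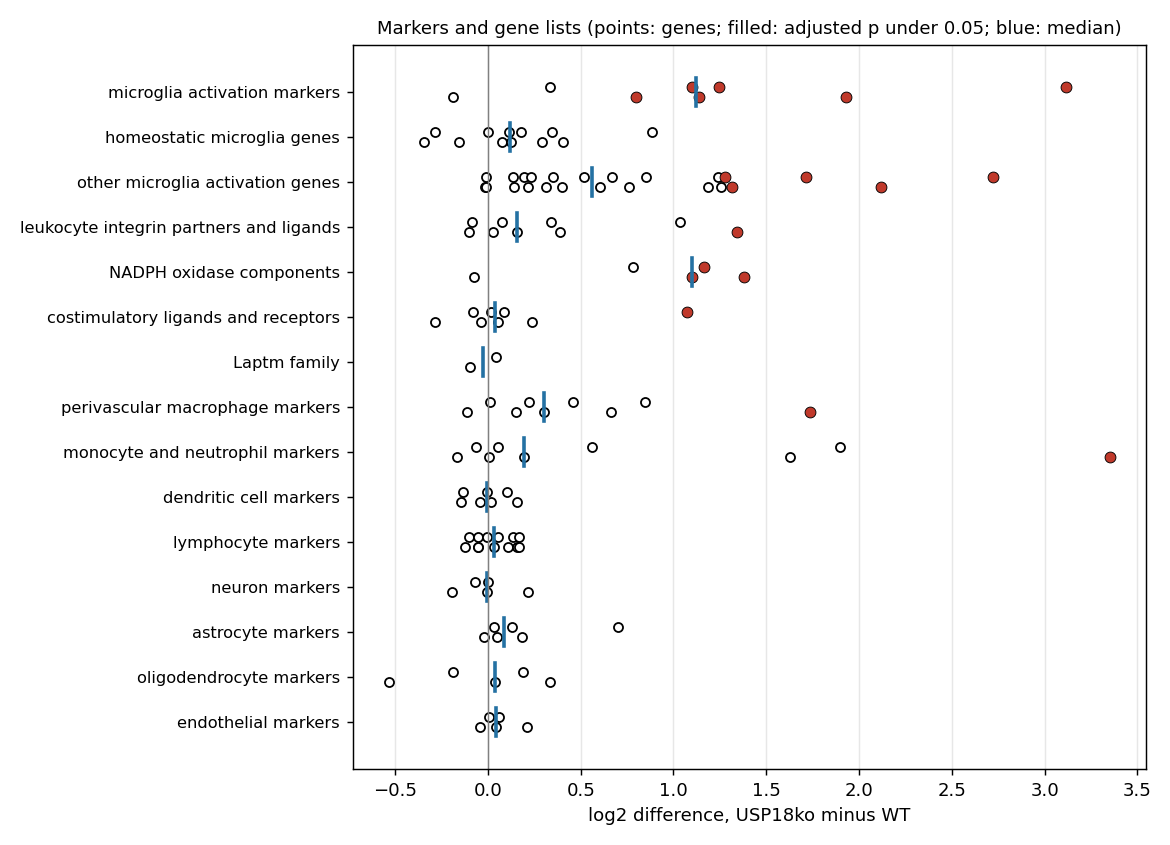
Log2 difference of USP18ko minus WT (horizontal axis) for the 8 genes and 14 lists of other genes (vertical axis), with a point for each gene, filled where the adjusted p is under 0.05, and a blue bar for the median of a list. The filled points lie among the 8 genes, other activation genes, oxidase components and single members of 4 further lists, and no point is filled among homeostatic genes, the Laptm family, dendritic cell, lymphocyte, neuron, astrocyte, oligodendrocyte or endothelial markers.

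Genes whose pattern over the 12 arrays was most like that of each raised gene were found by the root mean square difference between signals, each centred on its own mean. For Cd52 they were Psmb8 (0.26), AW112010 (0.26) and Psmb9 (0.26), where the SD of Cd52 over the arrays was 1.51. Aif1, with an SD of 1.03, was nearest to Ctss (0.20), Mpeg1 (0.24) and B2m (0.25). Itgb2, with an SD of 0.61, was nearest to Pld4 (0.16), Irf9 (0.17) and Rac2 (0.17), the last of which is also an oxidase component. Laptm5 (SD 0.64) lay nearest to P2ry6 (0.19), Ctsc (0.19) and Fyb (0.21). Cybb (SD 0.51) lay nearest to Acod1 (0.13), Cd274 (0.15) and Irf8 (0.18), and Itgam (SD 0.39) to Znfx1 (0.13), Xdh (0.16) and Ifitm6 (0.17). None of these 18 neighbours was itself among the 8 genes. All of them were called higher in USP18ko against WT, by 0.70 to 3.22, which the measure favours, since the pattern is dominated by the USP18ko arrays.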

How the data were processed

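Whole-brain RNA of 12 samples was hybridised to 1-colour Affymetrix arrays. The log2 signals per probe set were made by the authors with the R package affy, per the submitters' processing notes, with version and normalization not given in the sources used here. That the logarithm has base 2 was inferred from the range of the values, 2.36 to 13.81, and array medians of 6.98 to 7.07. Normalization to a common median hides a change shared by most genes.

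Probe sets with 1 gene symbol in the platform annotation were kept (20380 of 22690; 691 had several symbols), and 64 control probe sets were left out. Each of 12393 genes was represented by 1 probe set, the brightest on average. limma 3.58.1 in R 4.3.3 (lmFit, contrasts.fit, eBayes) fitted genotype in 1 model over all arrays, with Benjamini-Hochberg adjustment over all genes and a call at an adjusted p under 0.05. The number of arrays limits the precision. The fit was tested on simulated data for USP18ko against WT. Unlike the real data, these gave a gene the same spread in all arrays and had no array that stood apart. In that setting the fit recovered 38.4% of log2 differences of 0.5, 87.2% of 1 and 99.2% of 2, and 5.28% of its calls were false. Rates for the real arrays were not tested. A difference near 0.5 that did not pass is thus not shown to be absent. The 8 genes, the gene lists and the tests were chosen with earlier results of these data known, and 18 listed genes had no measured probe set. The genes named are the 8, up to 4 genes with the smallest p among those called in a list, the first 3 measured genes of a list where none was called, and the 3 genes nearest in pattern to each called gene. Itgal, Rac1, Cd80, Lgals3, S100a8, S100a9, Ccr2, Mpo, Mrc1, Cd163, Lyve1 and Gfap were named after their values were seen.

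The other settings tried were averaged probe sets, separate tests of every probe set, a filter at the 40th percentile of average level, quantile normalization, array weights, a replicate block, the signal of Eif2s3y as a covariate, only the groups compared, and each array left out in turn. Leaving out 3 arrays that stand apart was added after seeing the data. Arrays with the same replicate number were not treated as pairs.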

Additional observations from a re-analysis of the deposited data

Results flagged for a closer look

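The difference seen with Usp18 loss was not the same without and with the receptor gene, by limma's interaction term, for 5 of the 8 genes. In that direction 0.823% of all genes were called. The value is the difference of USP18ko:IFNARko against IFNARko minus that of USP18ko against WT. It was -3.03 for Cd52, -2.17 for Aif1, -1.61 for Laptm5, -1.21 for Itgb2 and -1.16 for Cybb on the log2 scale. That of Laptm5 is by its brightest probe set, and its other probe sets did not pass (-0.70 and -0.38). With Eif2s3y as a covariate only Cd52 and Cybb passed, Aif1 was at -1.31, Laptm5 at -0.99 and Itgb2 at -1.11, and without any 1 of 5 arrays (USP18ko replicates 2 and 3 and the 3 of USP18ko:IFNARko) 3 genes passed. Xist, high in all USP18ko:IFNARko arrays, had an interaction of 7.13 itself (limma, adjusted p = 0.0237). Sex-linked signal and genotype thus cannot be fully separated in this term. Groups of 3 arrays are too small to test for single outlying arrays.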

How the results depend on the processing

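Of the 17 gene differences that were called, none changed sign under any alternative and 311 of 338 alternative values kept the call. Of 620 values for the 31 that were not called, 2 passed and 35 changed sign. Each gene entered these counts by its brightest probe set or by the average of its probe sets, so other probe sets were not counted singly. By limma, 1449858_at of Cd86 passed in USP18ko against WT (adjusted p = 0.0321) and in USP18ko:IFNARko against USP18ko (adjusted p = 0.00962). Of Laptm5, 1426025_s_at passed in both and 1417721_s_at in neither (adjusted p = 0.783 and 0.612). A filter that kept genes over the 40th percentile of average level left Laptm5 alone and gave 1 called gene in USP18ko against WT, 1 in USP18ko:IFNARko against USP18ko and 0 in the interaction. It tested 7436 genes, of which 28, 37 and 20 were called in these comparisons, against 143, 187 and 105 without it. With Eif2s3y as a covariate 2 genes were called in the interaction, and with single arrays left out 3 to 5, among 83 to 115 of all genes. Over all genes the covariate gave 124 calls in USP18ko:IFNARko against USP18ko and 51 in the interaction. Leaving out the 3 arrays that stand apart gave 11 in USP18ko:IFNARko against WT, 15 in IFNARko against WT and 14 in USP18ko:IFNARko against IFNARko, where all arrays gave 2, 1 and 0. Xist was then high in all remaining USP18ko:IFNARko arrays and low in all others. Array weights gave 814 calls in USP18ko:IFNARko against IFNARko and 500 in USP18ko:IFNARko against USP18ko, and fitting only these 2 groups gave 287 in the second of these. Separate tests of every probe set and single arrays left out moved the counts of 2, 1 and 0 within 0 to 5. The deviations of same-numbered arrays correlated at -0.15 to 0.27, so the rule for pairing was not met, although 8 of 12 arrays were nearest to one of their own number, which is a hint from the data and not from the design. With the replicate block 6 genes were called in USP18ko against WT, 6 in USP18ko:IFNARko against USP18ko and 5 in the interaction, and 0 in the other comparisons. Over all genes the block gave 142, 178 and 102 calls in these comparisons and 0 in the others.

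All values that changed sign were of differences that did not pass, and the cause was not tested. In IFNARko against WT, averaging probe sets gave -0.057 for Laptm5. Array weights gave 0.031 for Itgam, -0.012 for Laptm5, -0.051 for Cybb and -0.16 for Cd86. Eif2s3y as a covariate gave -0.081 for Laptm5. Without the 3 arrays that stand apart, the values were 0.044 for Itgam, -0.23 for Laptm5 and -0.16 for Cd86. Single arrays left out gave -0.54 to 0.17 for Aif1, -0.13 to 0.023 for Itgam, -0.10 to 0.35 for Laptm5, -0.028 to 0.17 for Cybb and -0.12 to 0.33 for Cd86. In USP18ko:IFNARko against WT, Cybb was 0.042 with quantile normalization, 0.12 without the 3 arrays and -0.082 to 0.12 with single arrays left out, and Laptm5 was 0.038 with the covariate. In USP18ko:IFNARko against IFNARko, the covariate gave 0.42 for Aif1, 0.0050 for Itgb2 and 0.12 for Laptm5, and Cybb was 0.048 with array weights and 0.0070 without the 3 arrays. Single arrays left out there gave -0.12 to 0.0020 for Itgb2, -0.040 to 0.25 for Cd52, -0.15 to 0.0066 for Cybb and -0.060 to 0.24 for Itgax. In USP18ko:IFNARko against USP18ko they gave -0.088 to 0.12 for Itgax.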
